A study of Mus musculus with 36 samples.

Results

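Primordial germ cells (PGCs), the embryonic cells from which eggs and sperm descend, were compared between the sexes at day E13.5 of mouse gestation. The comparison took the 3 E13.5F and the 3 E13.5M control PGC samples, chosen by their labels, which are 6 of the 36 samples of the series. Autosomal genes with a mean of at least 1 TPM (a level scaled by transcript length and sequencing depth) in either group were tested. The study asked how intrauterine hyperglycemia, brought on by streptozotocin in the mother, affects fetal germ cells. Both groups used here were its control group, carried by mothers without that treatment, with the genotype given as WT. The study names ICR mice for other matings, and no strain for those used here. According to the study's methods, fathers carried Oct4-EGFP, a fluorescent reporter driven by the promoter of Pou5f1 (Oct4). Gonads were sexed by PCR for Sry or by shape, digested with trypsin, and sorted by flow cytometry for EGFP-positive cells. Each sample pooled the sorted cells of many fetuses, so its value is a mean over them.

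In the mouse gonad, PGCs of both sexes begin alike and part soon after the gonad becomes an ovary or a testis. In the ovary, retinoic acid and bone morphogenetic proteins (BMPs) reach the PGCs, the transcription factors STRA8 and MEIOSIN switch on meiotic genes, and the cells enter meiotic prophase. In the testis, retinoic acid is degraded, FGF9 and NODAL signalling keep the PGCs out of meiosis, and NANOS2 commits them to a spermatogenic fate before they stop dividing. The comparison asks which of these programs had parted by E13.5.

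The labels held in the data. The Y-linked Eif2s3y was listed at 0 in all 3 female samples and at 140.1, 171 and 156 TPM in the male samples, and Ddx3y and Uty were likewise at 0 in the female samples. Xist, the RNA that silences an X chromosome, was low in both, at 0.260, 0.291 and 0.406 TPM in female and 0.156, 0.163 and 0.174 TPM in male samples. Germ cell markers were abundant in every sample. Dazl, an RNA-binding protein of germ cells, was at 1962, 1962 and 2043 TPM in the female samples and 1131, 1274 and 1258 TPM in the male samples. Ddx4, the germ cell RNA helicase, was at 527, 437 and 605 TPM in the female samples and 208, 220.2 and 211 TPM in the male samples. Both were present in all 6 samples at high levels, higher in the female samples, without overlap.

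The sexes differed broadly, and the programs that parted were meiosis and some BMP target genes on the female side, and NODAL signalling, many pluripotency genes and early spermatogenic regulators on the male side. Of 15042 tested genes, 2923 (19.4%) were higher in female PGCs and 1436 (9.55%) were higher in male PGCs, at a limma adjusted p under 0.01 and an absolute log2 difference above 1. All differences are female minus male on log2(TPM + 1), so the difference of a gene near 0 TPM in both sexes is held down. The 6 samples of every called gene fell apart by sex without overlap. A call at these thresholds makes such a gap likely by itself, so the gap, here and for single genes below, adds no support. Its share over all tested genes was not counted. Of the calls, 783 on the female side and 421 on the male side passed the 1 TPM filter only in that sex. Correlations across genes were 0.977 to 0.982 within female samples, 0.991 to 0.992 within male samples and 0.887 to 0.897 between the sexes. With 3 samples against 3, an exact two-sided permutation test of a single gene cannot go below p = 0.1, so the calls rest on limma's variance pooled over genes.

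The balance between the directions depended on scaling. The median log2 difference over all tested genes was 0.26 on TPM (quartiles -0.39 and 0.85), and 0.00 after median-of-ratios scaling, which assumes that most genes do not differ. On TPM 67.1% of calls were on the female side, against 48.5% after that scaling and 49.4% after quantile normalization. After median-of-ratios scaling 1958 genes (13.0%) were higher in female and 2082 (13.8%) higher in male PGCs. All 1958 were also female calls on TPM, 965 female calls were lost, all 1436 male calls were kept and 646 were added. The 100 most abundant genes took 21.9%, 22.4% and 20.9% of TPM in female and 27.8%, 26.7% and 27.3% in male samples, and 81 autosomal ribosomal protein genes took 11.2%, 11.8% and 10.3% against 15.6%, 14.5% and 14.8%. Each list count is therefore given for TPM first and then for median-of-ratios values ("after scaling"), and differences are to be read against the 0.26 of all genes. The amount of RNA per cell was not measured.

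**Figure D1:**
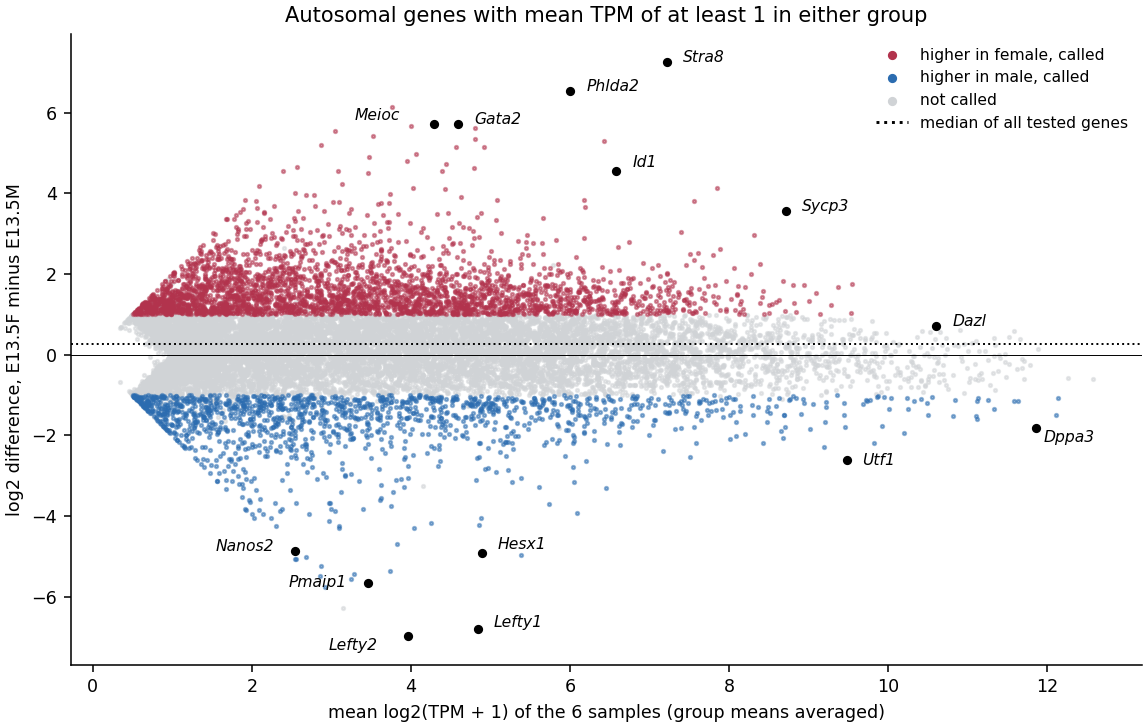
Each point is 1 of the 15042 tested autosomal genes, by its mean level over the 6 samples and its log2 difference, female minus male, on log2(TPM + 1), with the called genes in color. The points named include Stra8 at 7.25 and Lefty2 at -6.97, and the cloud as a whole is centered above 0, at a median of 0.26.

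Regulators of meiotic entry gave the clearest split. Stra8, a retinoic acid-responsive gene required for meiotic prophase (ENSMUSG00000029848.12, at 34897098 to 34916279 on chromosome 6 of Mm39), was at 1936, 1718 and 1841 TPM in the female samples and 8.73, 13.0 and 11.7 TPM in the male samples (log2 difference 7.25, SE 0.13, adjusted p = 6.2e-09). All 3 female samples were far above all 3 male samples, with a ratio of means of 164. Meiosin, the partner of STRA8, was at 204, 168 and 217 TPM in the female samples and 3.13, 2.62 and 3.18 TPM in the male samples (log2 difference 5.63, SE 0.13, adjusted p = 1.1e-08). Meioc, an RNA-binding factor that keeps cells in meiotic prophase, was at 143, 127 and 154 TPM in the female samples and 1.38, 1.96 and 1.82 TPM in the male samples (log2 difference 5.71, SE 0.13, adjusted p = 1.1e-08). Both were low in all male samples and the groups did not come near each other. The homeobox gene Msx1 was at 110.2, 109 and 113 TPM in the female samples and 3.93, 2.98 and 2.79 TPM in the male samples (log2 difference 4.73, SE 0.13, adjusted p = 2.5e-08), and its relative Msx2 was at 54.6, 61.8 and 62.6 TPM in the female samples and 1.58, 0.909 and 0.708 TPM in the male samples. Zglp1, a GATA-like factor of the oogenic program, was at 97.6, 120.2 and 102 TPM in the female samples and 24.5, 29.8 and 16.6 TPM in the male samples (log2 difference 2.16, SE 0.19, adjusted p = 1.1e-05). Zglp1 was thus not silent in male PGCs, though all 3 male samples were below all 3 female samples. In bulk samples, fewer cells of a type and less RNA per cell cannot be told apart.

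Of the list's 10 members, all tested, 9 were higher in female and 0 in male PGCs, and 8 and 0 after scaling. The background was 19.4% and 9.55% of tested genes, and 13.0% and 13.8% after scaling. The list's median log2 difference was 4.42, and 4.14 after scaling. Rec8, the meiotic cohesin, was at 88.4, 86.5 and 88.9 TPM in the female samples and 4.09, 4.37 and 4.05 TPM in the male samples. Rbm46, an RNA-binding protein needed for meiosis, was at 117, 129 and 139 TPM in the female samples and 28.1, 32.7 and 31.6 TPM in the male samples. Both parted without overlap, Rec8 with 21.1 times and Rbm46 with 4.16 times the mean level in female PGCs. Ythdc2, the helicase that works with MEIOC, was higher in female PGCs (log2 difference 1.18, adjusted p = 0.00014) but not called after scaling. Dazl, which makes PGCs competent for meiosis, differed by less than the fold threshold (log2 difference 0.71, adjusted p = 2e-05).

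The promoter windows of members that moved together are shown because STRA8 and MEIOSIN act at promoters. They come from RefSeq on GRCm38.p6, a build other than that of the expression values, and lie around each gene's start, mostly before it, 5' to 3' along the gene. Capitals mark matches, on either strand, to the motifs searched: CACGTG (an E-box), GGCGGGAA (an E2F-type site), TGACGTCA (a cAMP response element), GTCTAGAC (a SMAD palindrome), a direct repeat of AGGTCA spaced by 5 bases (bound by retinoic acid receptors), and CNCCTCAG (reported at promoters bound by STRA8, and added after the expression values were seen). No matches overlap in the windows shown, which are Stra8 at chr6:34920698-34920997 (plus strand), Meiosin at chr7:19118295-19118594 (minus strand), Tex12 at chr9:50561219-50561518 (minus strand), Hormad1 at chr3:95559427-95559726 (plus strand) and Sycp3 at chr10:88459337-88459636 (plus strand).
Stra8: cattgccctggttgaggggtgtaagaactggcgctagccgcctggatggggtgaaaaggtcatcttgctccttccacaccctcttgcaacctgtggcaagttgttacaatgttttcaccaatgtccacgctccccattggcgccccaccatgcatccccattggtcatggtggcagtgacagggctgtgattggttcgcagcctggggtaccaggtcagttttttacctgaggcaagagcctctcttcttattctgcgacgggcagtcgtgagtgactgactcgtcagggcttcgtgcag
Meiosin: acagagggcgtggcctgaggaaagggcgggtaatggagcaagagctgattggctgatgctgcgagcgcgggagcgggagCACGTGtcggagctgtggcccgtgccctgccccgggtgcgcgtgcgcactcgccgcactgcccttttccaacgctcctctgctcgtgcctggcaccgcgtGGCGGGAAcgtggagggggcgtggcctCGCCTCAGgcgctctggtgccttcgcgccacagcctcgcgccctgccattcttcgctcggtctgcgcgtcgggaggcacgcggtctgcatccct
Tex12: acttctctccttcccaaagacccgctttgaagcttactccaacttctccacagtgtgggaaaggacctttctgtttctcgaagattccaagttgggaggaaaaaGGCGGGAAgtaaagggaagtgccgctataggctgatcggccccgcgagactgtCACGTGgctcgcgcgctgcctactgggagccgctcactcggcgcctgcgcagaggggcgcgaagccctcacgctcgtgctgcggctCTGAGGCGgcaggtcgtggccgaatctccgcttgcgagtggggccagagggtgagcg
Hormad1: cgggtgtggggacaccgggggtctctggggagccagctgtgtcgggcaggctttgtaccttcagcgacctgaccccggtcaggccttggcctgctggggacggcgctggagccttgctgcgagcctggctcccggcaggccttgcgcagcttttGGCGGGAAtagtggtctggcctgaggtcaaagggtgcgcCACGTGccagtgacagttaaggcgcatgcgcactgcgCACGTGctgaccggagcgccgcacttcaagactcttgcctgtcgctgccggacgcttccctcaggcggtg
Sycp3: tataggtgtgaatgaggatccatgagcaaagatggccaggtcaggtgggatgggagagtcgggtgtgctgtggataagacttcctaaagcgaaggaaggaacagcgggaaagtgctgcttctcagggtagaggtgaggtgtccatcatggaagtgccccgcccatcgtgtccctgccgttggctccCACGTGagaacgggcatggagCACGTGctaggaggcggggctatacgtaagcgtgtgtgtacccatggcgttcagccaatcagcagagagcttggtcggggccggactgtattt

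The Stra8 window held none of the 6 motifs, which says only that these letters are not in it. The windows of Meiosin and Tex12 each held CACGTG, GGCGGGAA and CNCCTCAG. Hormad1 held CACGTG at 2 places and GGCGGGAA at 1, and Sycp3 held CACGTG at 2 places. Of the 52 called members of the 5 meiotic lists, 44 matched a window: CACGTG was in 13 (29.5%), CNCCTCAG in 12 (27.3%), GGCGGGAA in 9 (20.5%), TGACGTCA in 1 (2.27%), and neither GTCTAGAC nor the direct repeat in any. Among all 32851 windows of this length the shares were 7.15%, 7.94%, 2.19%, 1.79%, 0.213% and 0.00913% for CACGTG, CNCCTCAG, GGCGGGAA, TGACGTCA, GTCTAGAC and the repeat. Only 10023 of the 15042 tested genes matched a window, and there CACGTG was in 11.9%, CNCCTCAG in 11.2% and GGCGGGAA in 4.92%. Among the matched genes of all female calls the shares were 9.61%, 14.5% and 5.39%, and of all male calls 15%, 8.63% and 2.47% for the same motifs in the same order. A match is a description of letters, not a bound site.

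Structural genes of the meiotic chromosome were higher in female PGCs almost throughout, but unlike Stra8 many were already expressed in male PGCs. Sycp3, a lateral element of the synaptonemal complex that joins homologous chromosomes, was at 1480.0, 1596 and 1257 TPM in the female samples and 115, 123 and 124 TPM in the male samples (log2 difference 3.56, SE 0.093, adjusted p = 1.9e-08). Tex12, of its central element, was at 716, 774 and 642 TPM in the female samples and 49.9, 51.6 and 46.6 TPM in the male samples (log2 difference 3.82, SE 0.088, adjusted p = 1.1e-08). Hormad1, of the chromosome axis, was at 885, 896 and 886 TPM in the female samples and 106, 128 and 103 TPM in the male samples (log2 difference 2.98, SE 0.089, adjusted p = 4.5e-08). In each case all female samples lay above all male samples, yet the male samples held from 46.6 to 128 TPM. Syce1, also of the central element, was at 443, 411 and 422 TPM in the female samples and 75.7, 79.2 and 92.1 TPM in the male samples. Of the 11 members, 10 were tested, Sycp2l being below the filter, and 10 were higher in female and 0 in male PGCs (9 and 0 after scaling, which lost Syce2). The background was 19.4% and 9.55% of all tested genes (13.0% and 13.8% after scaling). The list's median log2 difference was 2.29 (1.99 after scaling).

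Meiotic cohesins and the proteins that tie telomeres to the nuclear envelope followed. Majin, of the telomere attachment complex, was at 75.9, 70.0 and 77.4 TPM in the female samples and 0.797, 0.877 and 0.602 TPM in the male samples (log2 difference 5.42, SE 0.13, adjusted p = 1.6e-08). Its partner Terb1 was at 42.1, 28.8 and 41.1 TPM in the female samples and 1.04, 1.09 and 0.937 TPM in the male samples (log2 difference 4.22, adjusted p = 2.2e-07). Spdya, an activator of CDK2 at telomeres, was at 102, 102 and 97.4 TPM in the female samples and 3.34, 3.14 and 3.39 TPM in the male samples (log2 difference 4.56, adjusted p = 1.1e-08). All 3 were low in male PGCs and apart from the female samples. Rad21l, a meiotic kleisin, was at 10.7, 10.3 and 13.0 TPM in the female samples and 0, 0.198 and 0 TPM in the male samples, and the cohesin Smc1b was at 452, 408 and 430.1 TPM in the female samples and 69.2, 81.4 and 76.6 TPM in the male samples. All 12 members were tested, 3 of which passed the filter only in female PGCs, and 9 were higher in female and 0 in male PGCs (9 and 0 after scaling). The background was 19.4% and 9.55% of all tested genes (13.0% and 13.8% after scaling). Cdk2, Sun1 and Sun2, which also serve outside meiosis, were not called (log2 differences 0.12, 0.65 and 0.74). Across tested members the median log2 difference was 3.06, or 2.81 after scaling.

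Genes that make meiotic DNA breaks were all higher in female PGCs on TPM. Iho1, which places the break machinery on the axis, was at 34.8, 26.3 and 31.4 TPM in the female samples and 1.57, 0.958 and 1.44 TPM in the male samples (log2 difference 3.78, SE 0.17, adjusted p = 3.3e-07). Mei1, required for breaks, was at 13.4, 13.2 and 17.2 TPM in the female samples and 0.0805, 0.0471 and 0.172 TPM in the male samples (log2 difference 3.82, SE 0.18, adjusted p = 3.8e-07). Prdm9, the histone methyltransferase that positions breaks, was at 29.7, 27.3 and 30.1 TPM in the female samples and 1.08, 1.50 and 1.02 TPM in the male samples (log2 difference 3.78, SE 0.15, adjusted p = 1.8e-07). These 3 were low in all male samples, far below the female samples. Spo11, whose protein cuts the DNA, differed less, at 24.1, 20.1 and 25.7 TPM in the female samples and 4.95, 6.32 and 5.12 TPM in the male samples (log2 difference 1.91), and Mei4 was at 34.2, 32.2 and 36.5 TPM in the female samples and 7.17, 7.27 and 7.00 TPM in the male samples (log2 difference 2.11). All 10 members were tested, 1 (Mei1) passing only in female PGCs, and 10 were higher in female and 0 in male PGCs (8 and 0 after scaling, which lost Rec114 and Hells). The background was 19.4% and 9.55% of all tested genes (13.0% and 13.8% after scaling). The median member differed by 1.83 on the log2 scale, and by 1.57 after scaling.

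In strand exchange and crossover formation, M1ap, required for male meiosis, was at 563, 477 and 576 TPM in the female samples and 12.8, 11.2 and 14.2 TPM in the male samples (log2 difference 5.30, SE 0.11, adjusted p = 1.1e-08). Meiob, which binds single-stranded DNA, was at 89.2, 97.3 and 91.8 TPM in the female samples and 2.07, 2.81 and 1.26 TPM in the male samples (log2 difference 4.97, SE 0.18, adjusted p = 1.2e-07). Its partner Spata22 was at 12.8, 10.3 and 17.5 TPM in the female samples and was listed at 0 in all male samples. Dmc1, the meiotic recombinase, was at 92.3, 92.8 and 91.4 TPM in the female samples and 6.89, 9.02 and 7.25 TPM in the male samples (log2 difference 3.43, SE 0.12, adjusted p = 8e-08). These members were all lower in each male sample than in any female sample. Of 21 members, all tested and 2 passing only in female PGCs, 15 were higher in female and 0 in male PGCs (11 and 0 after scaling). The background was 19.4% and 9.55% of all tested genes (13.0% and 13.8% after scaling). Among the members not called were Psmc3ip, Mnd1, Mcmdc2, Mlh3 and Helq, with log2 differences of 0.43, 0.18, 0.24, 0.36 and 0.62. Members had a median log2 difference of 1.98, which scaling took to 1.71.

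**Figure D2:**
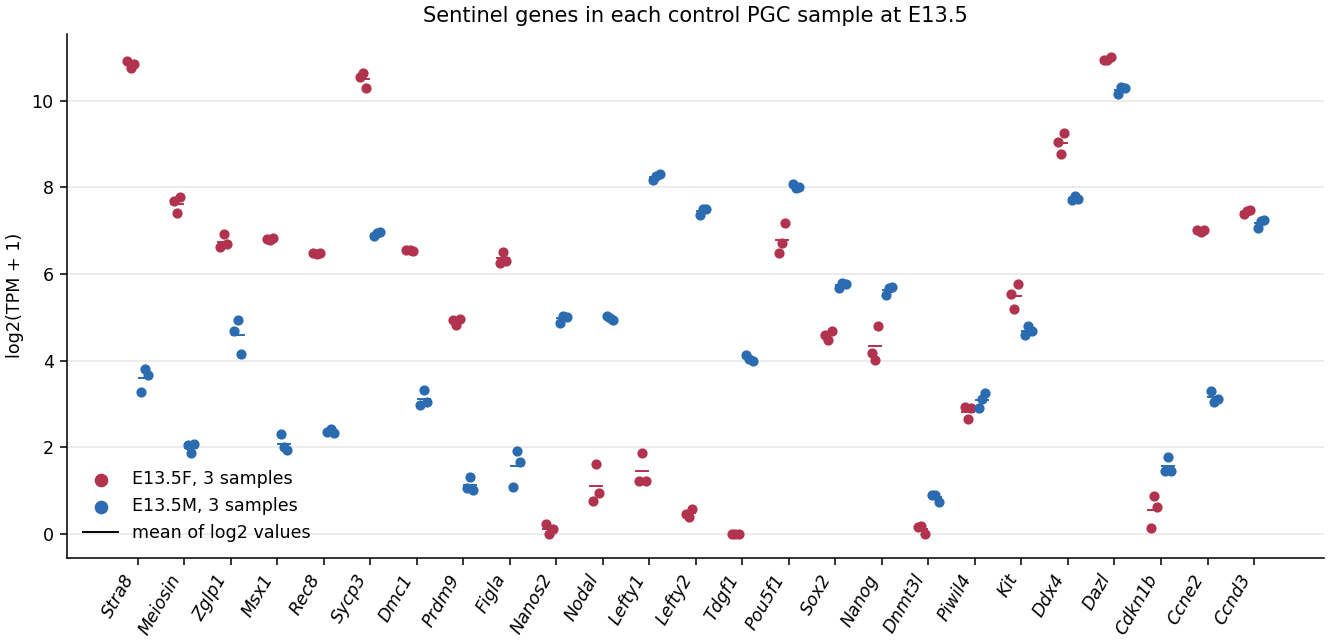
Levels of sentinel genes as log2(TPM + 1) in each of the 3 female and 3 male samples, 1 point per sample, with a bar at each group's mean. Stra8 sits between 1719 and 1936 TPM in female and between 8.73 and 13.0 TPM in male samples, and Lefty1, Lefty2 and Nanos2 are arranged the other way.

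Some BMP target genes were among the strongest differences, while other targets were not called and BMP ligands split. Gata2, a transcription factor downstream of BMP in PGCs, was at 169, 163 and 192 TPM in the female samples and 1.96, 3.26 and 1.93 TPM in the male samples (log2 difference 5.72, SE 0.16, adjusted p = 2.9e-08). Id1, an inhibitor of helix-loop-helix factors and a direct target of BMP-activated SMADs, was at 421, 506 and 462 TPM in the female samples and 18.7, 18.1 and 19.5 TPM in the male samples (log2 difference 4.55, SE 0.091, adjusted p = 8.8e-09). Id2 was at 245, 315 and 255 TPM in the female samples and 16.7, 24.1 and 14.7 TPM in the male samples (log2 difference 3.83, SE 0.17, adjusted p = 3e-07). All were separated widely between the sexes, and Id3 was called in the same direction (log2 difference 2.26). The targets Id4, Smad7 and Bambi were not called (log2 differences 0.86, 0.20 and 0.56), and Smad6 was called on TPM only. Among ligands, Bmp2, made by the somatic cells of the ovary, was at 4.97, 5.26 and 4.27 TPM in the female samples and 0.171, 0.416 and 0.292 TPM in the male samples (log2 difference 2.17, adjusted p = 1.1e-05), while Bmp4 was at 4.25, 4.04 and 5.41 TPM in the female samples and 26.8, 25.7 and 29.0 TPM in the male samples (log2 difference -2.34, adjusted p = 1.6e-06). The receptor Bmpr1a was higher in female PGCs (log2 difference 1.95), Bmp7 was higher in male PGCs (-1.10), and Smad1, which carries the signal, was not called (-0.14). Of 19 members 2 were below the filter, and of 17 tested, 3 of them passing only in female PGCs, 9 were higher in female and 2 in male PGCs (7 and 2 after scaling). The background was 19.4% and 9.55% of all tested genes (13.0% and 13.8% after scaling), and the male count was near it. The list's median log2 difference was 1.11, and 0.83 after scaling.

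Retinoic acid genes differed less. Rdh10, which makes the precursor of retinoic acid, was at 18.1, 19.1 and 18.1 TPM in the female samples and 2.77, 3.30 and 3.59 TPM in the male samples (log2 difference 2.20, SE 0.14, adjusted p = 2.3e-06). The binding proteins Crabp1 and Crabp2 were at 191, 234 and 282 and 63.9, 71.8 and 55.0 TPM in the female samples and at 76.8, 59.0 and 82.8 and 16.0, 22.8 and 18.1 TPM in the male samples, without overlap. Rarb, a receptor and a known retinoic acid target, was at 1.23 to 1.80 TPM in female samples and at 0 to 0.0587 TPM in male samples (log2 difference 1.28). The receptors Rara and Rarg were not called (log2 differences -0.14 and -0.43). Aldh1a2, the synthesizing enzyme, was higher in male PGCs, at 10.7, 11.7 and 13.7 TPM in the male samples and 4.49, 2.35 and 3.45 TPM in the female samples (log2 difference -1.58), and Cyp26b1, which degrades retinoic acid in testis somatic cells, was below the filter in both. Of 19 members, 4 were below the filter, and of 15 tested, 3 of them passing only in female PGCs, 6 were higher in female and 1 in male PGCs (5 and 2 after scaling), beside 19.4% and 9.55% of all tested genes (13.0% and 13.8% after scaling). Its median log2 difference was 0.57 (0.34 after scaling).

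The oocyte program had only begun. Figla, the transcription factor that directs zona pellucida genes and follicle formation, was at 75.4, 89.8 and 78.0 TPM in the female samples and 1.13, 2.76 and 2.17 TPM in the male samples (log2 difference 4.80, SE 0.20, adjusted p = 2.3e-07). Its 3 female samples stood far above the male samples. Sohlh2, a helix-loop-helix factor of both oocytes and spermatogonia, was at 349, 264 and 304 TPM in the female samples and 102, 100.5 and 107 TPM in the male samples (log2 difference 1.55, adjusted p = 2.5e-06). Lhx8 and Sohlh1 were called at low levels, 3.31 to 4.85 and 2.53 to 3.50 TPM in female PGCs, and Nobox was at 0.909 to 2.50 TPM in female and 1.48 to 1.81 TPM in male samples, not called (log2 difference -0.12, adjusted p = 0.694). The early oocyte genes Gdf9, Zp2, Zp3, Oosp1, Nlrp5, Padi6 and Tbpl2 were all below the filter. Zp1 was called higher in male PGCs at 1.44 to 2.52 TPM, against 0 to 0.407 TPM in female PGCs. Of 15 members 7 were below the filter and of 8 tested, 1 passing only in female and 2 only in male PGCs, 5 were higher in female and 2 in male PGCs (3 and 2 after scaling), beside 19.4% and 9.55% of all tested genes (13.0% and 13.8% after scaling). Across tested members the median log2 difference was 1.20, or 0.95 after scaling.

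On the male side NODAL signalling stood out. Lefty2, an inhibitor and target of NODAL, was at 163, 180.0 and 179 TPM in the male samples and 0.376, 0.315 and 0.486 TPM in the female samples (log2 difference -6.97, SE 0.12, adjusted p = 6.2e-09). Lefty1, its neighbor on chromosome 1, was at 284, 307 and 316 TPM in the male samples and 1.33, 2.64 and 1.34 TPM in the female samples (log2 difference -6.81, SE 0.17, adjusted p = 1.7e-08). Nodal itself was at 31.5, 30.7 and 29.8 TPM in the male samples and 0.699, 2.05 and 0.914 TPM in the female samples (log2 difference -3.88, SE 0.22, adjusted p = 1e-06). In each, male samples were uniform and no female sample exceeded 2.64 TPM. Tdgf1 (Cripto), the co-receptor of NODAL, was at 16.6, 15.5 and 14.8 TPM in the male samples and was listed at 0 in all female samples. Not all of the pathway followed: Foxh1, Smad2, Smad3 and Smad4 were not called, with log2 differences of 0.63, 0.68, -0.09 and -0.16, and the receptor Acvr2a was higher in female PGCs (1.43).

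Of the 17 NODAL and activin members 3 were below the filter, Inhba and Inhbb among them, and of 14 tested, 4 passing only in male PGCs, 1 was higher in female and 5 in male PGCs (1 and 6 after scaling), beside 19.4% and 9.55% of all tested genes (13.0% and 13.8% after scaling). The median member differed by -0.30 on the log2 scale, and by -0.60 after scaling.

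Regulators of male fate were already split. Nanos2, the RNA-binding protein that represses meiosis and drives spermatogenic fate, was at 28.2, 31.9 and 31.3 TPM in the male samples and 0.163, 0 and 0.0753 TPM in the female samples (log2 difference -4.87, SE 0.16, adjusted p = 6.2e-08). Its relative Nanos3 was at 258, 259 and 272 TPM in the male samples and 15.8, 16.1 and 17.7 TPM in the female samples (log2 difference -3.91, SE 0.085, adjusted p = 1.1e-08). Hesx1, a homeobox repressor, was at 159, 164 and 159.7 TPM in the male samples and 6.22, 3.86 and 3.46 TPM in the female samples (log2 difference -4.91, SE 0.17, adjusted p = 8.4e-08). Meig1, later needed for sperm formation, was at 36.0, 37.2 and 36.9 TPM in the male samples and 0.753, 1.64 and 0.561 TPM in the female samples (log2 difference -4.29, SE 0.20, adjusted p = 3.9e-07). All 4 separated the sexes fully, but at different baselines, as Nanos3 kept a level of 15.8 to 17.7 TPM in female PGCs while Nanos2 was at or near 0. Dnd1, the partner of NANOS proteins, was higher in male PGCs at 506, 591 and 587 TPM in the male samples and 230.2, 223 and 226 TPM in the female samples (log2 difference -1.30).

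Dnmt3l and Piwil4, of later parts of the spermatogenic program, were low at E13.5, unlike Meig1. Dnmt3l, the cofactor of germline DNA methylation, was below the filter at 0.860, 0.851 and 0.672 TPM in the male samples and 0.109, 0.125 and 0 TPM in the female samples. Piwil4, the nuclear Piwi protein of prospermatogonia, was at 6.49, 7.58 and 8.53 TPM in the male samples and 6.56, 5.28 and 6.43 TPM in the female samples and was not called (log2 difference -0.27, SE 0.16, adjusted p = 0.179). The male and female ranges of Piwil4 overlapped. Of 13 male fate members 12 were tested, 2 passing only in male PGCs, and 2 were higher in female, Mov10l1 and Ddx25, and 6 in male PGCs (1 and 6 after scaling), beside 19.4% and 9.55% of all tested genes (13.0% and 13.8% after scaling). Members had a median log2 difference of -0.78, which scaling took to -1.07.

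Many pluripotency genes were higher in male PGCs, and most of these remained expressed in female PGCs. Utf1, a chromatin factor of pluripotent cells, was at 1725, 1787 and 1781 TPM in the male samples and 276, 291 and 291 TPM in the female samples (log2 difference -2.62, SE 0.061, adjusted p = 1.1e-08). Dppa3 (Stella), also in the list of general germ cell genes, was at 6661, 7001 and 7130.4 TPM in the male samples and 1850.2, 2229 and 1889 TPM in the female samples (log2 difference -1.80, SE 0.080, adjusted p = 2.7e-07). Pou5f1, whose promoter drives the reporter used in the sort, was at 269, 253 and 256 TPM in the male samples and 88.5, 104 and 142 TPM in the female samples (log2 difference -1.23, SE 0.15, adjusted p = 9.2e-05). Male samples were above female samples in all 3 genes, and no female sample was near 0. Whether the sorting gate caught different fractions of male and female PGCs was not tested. Sox2 was at 50.0, 54.7 and 53.2 TPM in the male samples and 22.9, 21.4 and 24.7 TPM in the female samples (log2 difference -1.16), and Nanog was at 44.5, 50.4 and 50.6 TPM in the male samples and 17.1, 15.1 and 26.9 TPM in the female samples (log2 difference -1.30). L1td1, an RNA-binding protein, was at 15.6, 15.9 and 14.1 TPM in the male samples and 0.783, 2.35 and 2.33 TPM in the female samples (log2 difference -2.58, adjusted p = 2.3e-05). Of 21 tested members, 2 more being below the filter and 1 passing only in male PGCs, 0 were higher in female and 11 in male PGCs (0 and 13 after scaling). The background was 19.4% and 9.55% of all tested genes (13.0% and 13.8% after scaling). The list's median log2 difference was -1.08, and -1.27 after scaling. Dppa2, Sall4, Prdm14 and Klf2 were among the 10 not called, of which Klf4, Lin28a, Lin28b, Dppa2 and Tfcp2l1 were to the female side (log2 differences 0.53, 0.60, 0.71, 0.16 and 0.15), and Tdgf1, given above, is also a member.

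FGF receptors differed in both directions. Fgfr3 was at 13.8, 11.5 and 17.4 TPM in the female samples and 0.368, 0.344 and 0.256 TPM in the male samples (log2 difference 3.51, adjusted p = 8.7e-07), whereas Fgfr2 was at 16.3, 18.1 and 17.8 TPM in the male samples and 6.47, 4.41 and 7.78 TPM in the female samples (log2 difference -1.38, adjusted p = 0.00018). Neither overlapped between the sexes. Fgfr1, the most abundant of the receptors in female PGCs, was at 28.4, 20.1 and 29.0 TPM in the female samples and 13.8, 14.0 and 12.51 TPM in the male samples, not called (log2 difference 0.88, adjusted p = 0.00094). Some targets of FGF and ERK signalling were higher in male PGCs: the phosphatase gene Dusp4 was at 28.0, 30.5 and 32.6 TPM in the male samples and 7.92, 5.87 and 7.46 TPM in the female samples (log2 difference -1.96), and the ETS factors Etv4 and Etv5 followed (-1.30 and -1.27). Spry1, Spry2 and Spry4, feedback inhibitors, were not called. Of 12 tested members, 2 more being below the filter, and 2 passing only in female and 1 only in male PGCs, 1 was higher in female and 4 in male PGCs (1 and 5 after scaling), beside 19.4% and 9.55% of all tested genes (13.0% and 13.8% after scaling). Its median log2 difference was -0.30 (-0.51 after scaling). Fgf9 itself, made by Sertoli cells, was at most 1.54 TPM.

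**Figure D3:**
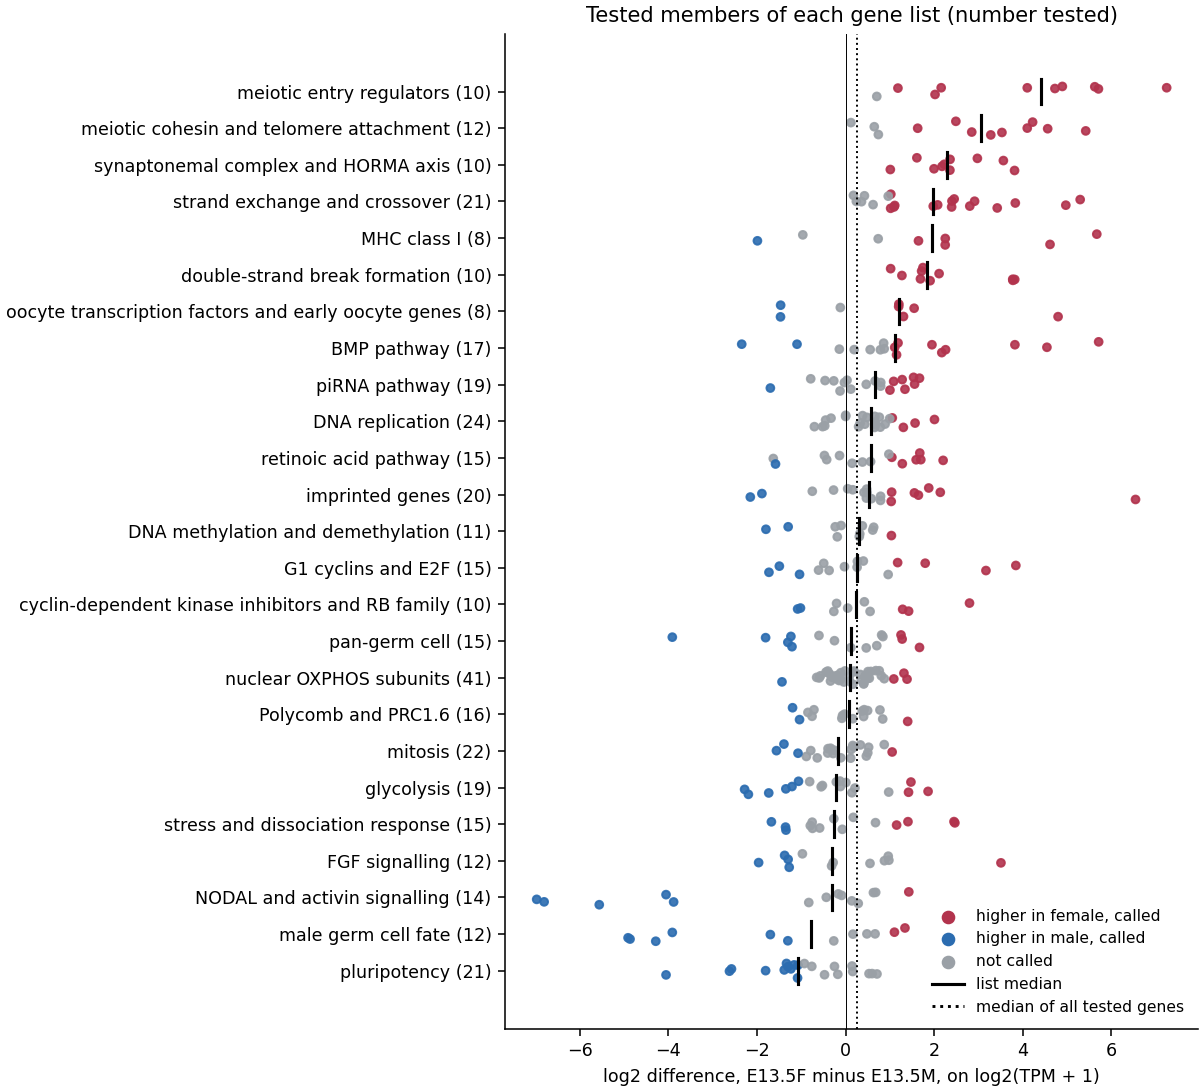
Log2 differences, female minus male, of the tested members of each gene list, 1 point per gene, with the median of each list and a line at the 0.26 of all tested genes. Meiotic entry regulators lie furthest to the female side with a median of 4.42, and pluripotency furthest to the male side with -1.08.

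Transposon control genes leaned to the female side, with fewer calls after scaling. Mael, a piRNA pathway protein, was at 538, 491 and 540.4 TPM in the female samples and 152, 169 and 169.9 TPM in the male samples (log2 difference 1.67, SE 0.077, adjusted p = 3.4e-07). Tdrd7, a Tudor protein of germ granules, was at 65.4, 49.3 and 66.0 TPM in the female samples and 18.2, 21.2 and 19.5 TPM in the male samples (log2 difference 1.56, adjusted p = 1.1e-05), and Gpat2, a mitochondrial piRNA factor, was at 231, 183 and 217 TPM in the female samples and 64.8, 75.0 and 75.5 TPM in the male samples (log2 difference 1.54, adjusted p = 3.3e-06). On the male side was Tdrd5, at 126, 134 and 136 TPM in the male samples and 41.7, 34.9 and 44.1 TPM in the female samples (log2 difference -1.70, adjusted p = 1.6e-06), and Tdrd12 was called higher in male PGCs only after scaling (log2 difference -0.79 on TPM). Mael, Tdrd7 and Gpat2 were above the male range in all female samples, and Tdrd5 below it. Piwil2 was not called (log2 difference 0.47, adjusted p = 0.0144), nor were Exd1, Piwil4 and Piwil1, which leaned male, and Spocd1 and Tdrd6 were below the filter. Of 19 tested members, 1 passing only in male PGCs, 7 were higher in female and 1 in male PGCs (4 and 2 after scaling), beside 19.4% and 9.55% of all tested genes (13.0% and 13.8% after scaling). Across tested members the median log2 difference was 0.67, or 0.44 after scaling.

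DNA methylation genes, at a time when the germline genome is demethylated, had few calls, in both directions. Dnmt3a, a de novo methyltransferase, was at 32.7, 52.4 and 30.8 TPM in the male samples and 10.6, 8.37 and 11.6 TPM in the female samples (log2 difference -1.80, SE 0.21, adjusted p = 6.4e-05). Tet1, which oxidizes methylcytosine, was at 18.9, 22.9 and 21.5 TPM in the male samples and 6.35, 7.71 and 10.3 TPM in the female samples (log2 difference -1.30, SE 0.17, adjusted p = 0.00018). Mbd4, a DNA glycosylase, was called in the other direction at 32.2, 28.1 and 35.0 TPM in the female samples and 14.8, 13.9 and 16.1 TPM in the male samples (log2 difference 1.04), though not after scaling. Dnmt1, the maintenance enzyme, was at 65.1, 70.4 and 75.0 TPM in the male samples and 72.2, 44.6 and 71.9 TPM in the female samples and was not called (log2 difference -0.19, SE 0.17, adjusted p = 0.367), with female replicate 2 apart from the other female samples. Of 11 tested members, 2 more being below the filter and 2 passing only in female PGCs, 1 was higher in female and 2 in male PGCs (0 and 2 after scaling), beside 19.4% and 9.55% of all tested genes (13.0% and 13.8% after scaling). Counts this small lie near the background, and the female count on TPM was under it. The median member differed by 0.31 on the log2 scale, and by 0.02 after scaling.

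G1 cell cycle genes differed in both directions. Ccne2, a cyclin of the G1 to S transition, was at 128, 124 and 128 TPM in the female samples and 8.84, 7.21 and 7.69 TPM in the male samples (log2 difference 3.85, SE 0.10, adjusted p = 2.5e-08). Ccnd1, a cyclin of G1, was at 60.9, 70.5 and 71.0 TPM in the female samples and 7.72, 6.55 and 5.63 TPM in the male samples (log2 difference 3.17, SE 0.13, adjusted p = 2.2e-07). Ccne1 was at 139, 119.8 and 124 TPM in the female samples and 35.4, 35.3 and 37.0 TPM in the male samples (log2 difference 1.80). The 3 cyclins were higher in every female sample, whereas the kinases of D cyclins went the other way: Cdk6 was at 9.23, 8.36 and 10.5 TPM in the male samples and 1.66, 2.16 and 2.59 TPM in the female samples (log2 difference -1.73, adjusted p = 3.6e-05) and Cdk4 had a log2 difference of -1.49. Ccnd3 was at 165, 175 and 178 TPM in the female samples and 133, 148 and 151 TPM in the male samples, not called (log2 difference 0.26, adjusted p = 0.0175), and its sign turned after scaling. Of 15 G1 cyclin, kinase and E2F members 4 were higher in female and 3 in male PGCs (3 and 3 after scaling), beside 19.4% and 9.55% of all tested genes (13.0% and 13.8% after scaling). Members had a median log2 difference of 0.26, which scaling took to -0.05.

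Among inhibitors, Cdkn2d (p19), expressed in meiotic germ cells, was at 265, 282 and 293 TPM in the female samples and 38.4, 40.5 and 39.1 TPM in the male samples (log2 difference 2.80, SE 0.078, adjusted p = 2.8e-08), Cdkn2c (p18) was at 5.79, 3.81 and 3.51 TPM in the female samples and 0.819, 1.08 and 1.01 TPM in the male samples, and Rb1 was at 21.9, 25.0 and 29.5 TPM in the female samples and 10.0, 9.58 and 9.62 TPM in the male samples. These were higher in female PGCs without overlap. Cdkn2a was higher in male PGCs, at 8.36, 7.22 and 7.42 TPM in the male samples and 2.56, 3.08 and 3.71 TPM in the female samples, and Cdkn1b (p27), linked to male arrest, was at 1.73, 2.44 and 1.72 TPM in the male samples and 0.0932, 0.838 and 0.530 TPM in the female samples (log2 difference -1.02, adjusted p = 0.00489), so both stayed low at E13.5, and the call of Cdkn1b was lost when any sample but female replicate 2 was left out. All 10 members were tested, 2 passing only in female and 1 only in male PGCs, and 3 were higher in female and 2 in male PGCs (3 and 2 after scaling), beside 19.4% and 9.55% of all tested genes (13.0% and 13.8% after scaling). The list's median log2 difference was 0.24, and -0.05 after scaling.

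DNA replication genes were expressed in both sexes, with Gins3 at 46.0, 40.2 and 41.6 TPM in the female samples and 8.76, 10.3 and 10.5 TPM in the male samples (log2 difference 2.01, adjusted p = 1.4e-06), Rrm2 at 248, 226 and 247 TPM in the female samples and 77.9, 87.0 and 76.1 TPM in the male samples, and Cdc6 and Rfc4 called in the same direction (log2 differences 1.31 and 1.06). No subunit of the MCM2 to MCM7 helicase was called. Of 24 members 4 were higher in female and 0 in male PGCs (3 and 1 after scaling), a share under the background of 19.4%. Its median log2 difference was 0.57 (0.27 after scaling). Among mitosis genes, Aurkb, a kinase of chromosome segregation, was at 108, 117 and 105 TPM in the male samples and 42.5, 42.9 and 38.5 TPM in the female samples (log2 difference -1.39, adjusted p = 2.1e-06), Cenpf, of the kinetochore, had a log2 difference of -1.07, and Bub1, of the spindle checkpoint, had 1.05. Incenp, the partner of AURKB, was at 80.5, 83.5 and 85.4 TPM in the male samples and 33.9, 12.6 and 47.9 TPM in the female samples (log2 difference -1.56), with a wide spread between the female samples and a call lost without female replicate 1 or any male sample. Of 22 mitosis members 1 was higher in female and 3 in male PGCs (0 and 5 after scaling), beside 19.4% and 9.55% of all tested genes (13.0% and 13.8% after scaling). Across tested members the median log2 difference was -0.18, or -0.47 after scaling.

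Polycomb and PRC1.6, complexes that hold meiotic genes silent before meiosis, had few calls, in both directions. Rnf2, a ubiquitin ligase of Polycomb, was at 132, 134 and 142 TPM in the female samples and 49.4, 52.1 and 51.4 TPM in the male samples (log2 difference 1.40, adjusted p = 9.8e-07). E2f6, a DNA-binding subunit of PRC1.6, was at 27.9, 31.4 and 27.2 TPM in the male samples and 16.3, 12.8 and 11.7 TPM in the female samples (log2 difference -1.04, adjusted p = 0.0002), and Ehmt2 (G9a), a histone methyltransferase, was at 36.1, 40.7 and 38.2 TPM in the male samples and 16.4, 12.3 and 20.7 TPM in the female samples (log2 difference -1.20, adjusted p = 0.00024). The samples of these 3 did not overlap by sex. Kdm1a was at 167, 163 and 168 TPM in the male samples and 129.8, 69.3 and 104 TPM in the female samples, under the fold threshold (log2 difference -0.76, adjusted p = 0.00638) but called after scaling. Max and Mga, core subunits, were not called. Of 16 members 1 was higher in female and 2 in male PGCs (1 and 4 after scaling), beside 19.4% and 9.55% of all tested genes (13.0% and 13.8% after scaling). On TPM the female count was under the background and the male count was near it. The median member differed by 0.07 on the log2 scale, and by -0.22 after scaling.

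Imprinted genes varied one by one. Phlda2, a growth-limiting gene expressed from the maternal allele in the placenta, was at 579.9, 679 and 600.5 TPM in the female samples and 3.97, 6.08 and 7.23 TPM in the male samples (log2 difference 6.55, SE 0.17, adjusted p = 1.9e-08). No other list member outside the meiotic entry and NODAL lists differed as much. Mest, paternally expressed, was at 66.9, 69.8 and 66.2 TPM in the male samples and 10.8, 13.8 and 20.1 TPM in the female samples (log2 difference -2.15, adjusted p = 1.2e-05), Plagl1 was at 5.41, 3.70 and 7.04 TPM in the female samples and 0.364, 0.294 and 0.606 TPM in the male samples, and Nnat was at 26.8, 20.8 and 18.9 TPM in the male samples and 9.10, 2.42 and 5.87 TPM in the female samples. Gnas was higher in female PGCs with a log2 difference of 1.88, and Peg3 and Cdkn1c were not called (0.16 and 0.05). Of 28 members 8 were below the filter and of 20 tested, 3 passing only in female PGCs, 7 were higher in female and 2 in male PGCs (5 and 3 after scaling), beside 19.4% and 9.55% of all tested genes (13.0% and 13.8% after scaling). Members had a median log2 difference of 0.53, which scaling took to 0.35.

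Energy metabolism parted at particular steps. Eno1, enolase of glycolysis, was at 1174, 1351 and 1338 TPM in the male samples and 262, 263 and 267 TPM in the female samples (log2 difference -2.28, SE 0.073, adjusted p = 6.1e-08). Lactate dehydrogenase subunits differed in opposite directions: Ldhb was at 1932, 1956 and 1930.3 TPM in the male samples and 417, 404 and 449 TPM in the female samples (log2 difference -2.19, SE 0.064, adjusted p = 3.8e-08), while Ldha was at 145, 147 and 151 TPM in the female samples and 39.4, 41.5 and 38.9 TPM in the male samples (log2 difference 1.86, SE 0.078, adjusted p = 2.2e-07). Neither overlapped between the sexes, and Ldhb was the more abundant subunit in both. The glucose transporter Slc2a1 was at 53.1, 58.8 and 51.8 TPM in the male samples and 15.7, 14.4 and 17.0 TPM in the female samples (log2 difference -1.73, adjusted p = 1.8e-06), and Pkm, Pgam1 and Pfkp were also higher in male PGCs (log2 differences -1.35, -1.21 and -1.06), whereas the lactate transporter Slc16a1 and Aldoc were higher in female PGCs (1.48 and 1.42). Of 19 glycolysis members, 1 passing only in male PGCs, 3 were higher in female and 6 in male PGCs (3 and 6 after scaling), beside 19.4% and 9.55% of all tested genes (13.0% and 13.8% after scaling). The list's median log2 difference was -0.21, and -0.51 after scaling.

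Nuclear subunits of the respiratory chain differed little. Of 42 members 1 (Ndufa1) is X-linked, and of 41 tested 3 were higher in female and 1 in male PGCs (2 and 1 after scaling), shares under the background. Its median log2 difference was 0.09 (-0.22 after scaling), and 0.35 after quantile normalization. Uqcrq, of complex III, was at 662, 593 and 549.8 TPM in the male samples and 241, 249 and 181 TPM in the female samples (log2 difference -1.43, adjusted p = 1.2e-05), against Uqcrc2 of the same complex at 429, 410.0 and 416 TPM in the female samples and 151, 164 and 162 TPM in the male samples (log2 difference 1.39, adjusted p = 4.9e-07). Ndufv2 and Ndufs1, of complex I, were higher in female PGCs (log2 differences 1.32 and 1.09), Ndufs1 not after scaling. The mitochondrial genome's own transcripts took 2.83%, 2.28% and 2.33% of TPM in female and 1.79%, 1.99% and 1.95% in male samples, which did not overlap.

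Most called MHC class I genes, which present antigens, were higher in female PGCs. H2-D1, a class I heavy chain, was at 113, 110.2 and 118 TPM in the female samples and 1.55, 1.73 and 0.622 TPM in the male samples (log2 difference 5.67, SE 0.19, adjusted p = 7.8e-08). H2-K1, its close copy, was at 141, 132 and 134.9 TPM in the female samples and 5.55, 5.09 and 3.35 TPM in the male samples (log2 difference 4.62, SE 0.15, adjusted p = 7.2e-08). B2m, the light chain, was at 86.6, 82.5 and 77.2 TPM in the female samples and 14.9, 19.6 and 15.1 TPM in the male samples (log2 difference 2.25, SE 0.12, adjusted p = 8.3e-07). All female samples were above all male samples, and the values of H2-D1 and H2-K1 may not be told fully apart by reads of similar sequence. Tap1, the peptide transporter, was at 4.47, 3.67 and 4.51 TPM in the female samples and 0.0617, 0.152 and 0.0677 TPM in the male samples, while Tapbp (tapasin) was higher in male PGCs at 51.7, 51.0 and 43.7 TPM in the male samples and 13.9, 8.23 and 13.2 TPM in the female samples (log2 difference -1.99, adjusted p = 1.7e-05). Of 8 tested members, 3 more being below the filter and 2 passing only in female PGCs, 5 were higher in female and 1 in male PGCs (5 and 2 after scaling), beside 19.4% and 9.55% of all tested genes (13.0% and 13.8% after scaling). Across tested members the median log2 difference was 1.95, or 1.70 after scaling. Nlrc5, which switches on class I genes in immune cells, was below the filter.

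Genes that respond to stress and to cell dissociation were mixed. Fos was at 571, 474 and 524 TPM in the female samples and 91.6, 97.1 and 91.3 TPM in the male samples (log2 difference 2.47, SE 0.085, adjusted p = 7.9e-08) and Junb at 51.1, 42.0 and 30.8 TPM in the female samples and 6.04, 6.44 and 7.37 TPM in the male samples (log2 difference 2.45, adjusted p = 4.5e-06). Egr1 and Dusp1, also of this list, were not called (log2 differences -0.07 and 0.18). Any part of cell handling in these values was not tested. Gadd45b was at 36.6, 37.0 and 36.4 TPM in the female samples and 11.1, 14.6 and 14.2 TPM in the male samples. Fos, Junb and Gadd45b were higher in every female sample. Bax, a trigger of cell death, was at 1064, 1012 and 1084 TPM in the male samples and 350.4, 299 and 341 TPM in the female samples (log2 difference -1.67, SE 0.078, adjusted p = 3.4e-07), and Trp53 was also higher in male PGCs (log2 difference -1.35). Of 15 members, 2 passing only in male PGCs, 4 were higher in female and 3 in male PGCs (3 and 5 after scaling), beside 19.4% and 9.55% of all tested genes (13.0% and 13.8% after scaling). The median member differed by -0.26 on the log2 scale, and by -0.57 after scaling.

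General germ cell genes were shared, with shifts in level. Of 15 members 3 were higher in female (Ddx4, Mael and Stk31) and 5 in male PGCs (Nanos3, Dppa3, Dnd1, Pou5f1 and Ifitm3), and 1 and 5 after scaling. The background was 19.4% and 9.55% of tested genes (13.0% and 13.8% after scaling), and the female count on TPM was near it. After scaling only Mael was still called on the female side. Ddx4 and Stk31 then fell just under the fold threshold (log2 differences 0.97 and 0.95). Members had a median log2 difference of 0.12, which scaling took to -0.17. Kit, the receptor that PGCs need to survive, was at 45.7, 35.5 and 53.4 TPM in the female samples and 23.0, 26.8 and 24.4 TPM in the male samples and was not called (log2 difference 0.82, SE 0.15, adjusted p = 0.00116), and Prdm1 and Prdm14, specifiers of PGCs, were not called.

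Outside the lists, 6 genes on each side had the largest differences. Lypd4 was at 54.9, 53.1 and 57.9 TPM in the female samples and 0.144, 0.371 and 0.112 TPM in the male samples (log2 difference 5.55, adjusted p = 2.5e-08), and its immediate neighbor on chromosome 7, the DM-domain gene Dmrtc2, was at 176, 172 and 188 TPM in the female samples and 3.88, 4.41 and 3.85 TPM in the male samples (log2 difference 5.16, adjusted p = 8.8e-09). The neighbors moved together, and strand was not stated for the libraries. Sct, the hormone secretin, was at 169, 195 and 172 TPM in the female samples and 2.59, 3.37 and 4.33 TPM in the male samples (log2 difference 5.36, adjusted p = 2.9e-08), Inca1, an inhibitor of CDK2, was at 144, 140.3 and 134.9 TPM in the female samples and 4.13, 4.02 and 1.39 TPM in the male samples, and Pparg, a nuclear receptor, was at 26.4, 19.9 and 27.8 TPM in the female samples and 0.0560, 0.212 and 0 TPM in the male samples. H2-Ab1, an MHC class II chain, was at 30.4, 27.9 and 27.8 TPM in the female samples and 0.194, 0 and 0.360 TPM in the male samples. All 6 were low in male PGCs. On the male side, Pmaip1 (Noxa), which promotes cell death, was at 85.0, 76.0 and 72.6 TPM in the male samples and 0.190, 0.241 and 1.51 TPM in the female samples (log2 difference -5.67, adjusted p = 3.7e-07), and Khdc3, later part of a maternal complex in eggs, was at 82.3, 87.4 and 83.6 TPM in the male samples and 1.48, 0.386 and 1.61 TPM in the female samples (log2 difference -5.36, adjusted p = 2.3e-07). Mgst2, a glutathione transferase, was at 63.7, 64.2 and 60.8 TPM in the male samples and 0.542, 0.802 and 0.151 TPM in the female samples, and the keratins Krt17 and Krt42 were at 42.9, 46.8 and 42.2 and at 32.3, 30.1 and 35.9 TPM in male samples, with Krt42 listed at 0 in all female samples. Defb19, a defensin known from fetal Sertoli cells, was at 59.3, 51.7 and 52.8 TPM in the male samples and 0, 0.0636 and 0 TPM in the female samples (log2 difference -5.76, adjusted p = 1.7e-08).

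All called markers of testis somatic cells were higher in the male samples. The summed TPM of 11 Sertoli markers was 45.5, 49.3 and 40.7 in female and 147, 134 and 144 in male samples, Aard being the most abundant of them in both sexes, at 38.9, 43.2 and 33.2 and 55.7, 48.9 and 48.5 TPM. In the list 0 were higher in female and 5 higher in male PGCs: Cst9 at 48.4, 46.2 and 46.9 TPM in the male samples, Ptgds at 25.9, 24.0 and 31.1, Amh at 3.92, 4.02 and 3.82, Dhh at 3.93, 3.15 and 3.39 and Sox9 at 2.96, 2.55 and 2.37. Amh was listed at 0 in all female samples. Fgf9, not called, and Cyp26b1, below the filter, went the other way in every sample, at 1.08, 1.50 and 1.54 and 0.867, 0.893 and 0.636 TPM in female against 0.366, 0.181 and 0.0692 and 0.328, 0.192 and 0.231 TPM in male samples. The sum of 5 Leydig markers was 2.02, 1.02 and 2.27 TPM in female and 49.1, 32.8 and 47.8 TPM in male samples, led by Star in female samples and by Insl3 in male samples, and 4 were higher in male PGCs, of which Cyp17a1 was listed at 0 in all female samples. The part of these cells in the male-side calls, Defb19 included, was not tested.

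Markers of ovarian somatic cells were low in both sexes. The sum of 10 pregranulosa markers was 23.9, 27.1 and 28.0 TPM in female and 19.0, 23.7 and 23.6 TPM in male samples. Wnt4, Irx3 and Bmp2 were higher in female PGCs at 3.21 to 6.38 TPM, Rspo1, the most abundant in both sexes, was higher in male PGCs at 11.6, 15.7 and 14.4 TPM in the male samples and 4.00, 6.45 and 7.29 TPM in the female samples, and Foxl2, the defining marker, was at most 0.494 TPM in any sample. The sum of 8 interstitial markers was 15.8, 13.4 and 18.9 TPM against 10.3, 9.80 and 10.4 TPM, led by Dcn, the only one called of 4 tested, higher in female PGCs and not called after scaling. The 6 endothelial markers summed to 68.4, 52.7 and 71.5 TPM against 47.2, 52.3 and 53.1 TPM, nearly all of it Pecam1, which PGCs express and which was the only one tested, and was not called. The 9 erythroid markers, led by Hba-a1, summed to 65.0, 36.9 and 0.267 TPM against 76.2, 2.02 and 2.30 TPM, with 0 called of 5 tested and a spread set by single samples. The 6 macrophage markers, led by Cd68, summed to 10.7, 5.73 and 8.93 TPM against 10.6, 7.55 and 7.87 TPM, with 0 called of 4 tested. Their part in the female-side calls, Bmp2 included, was not tested.

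**Figure D4:**
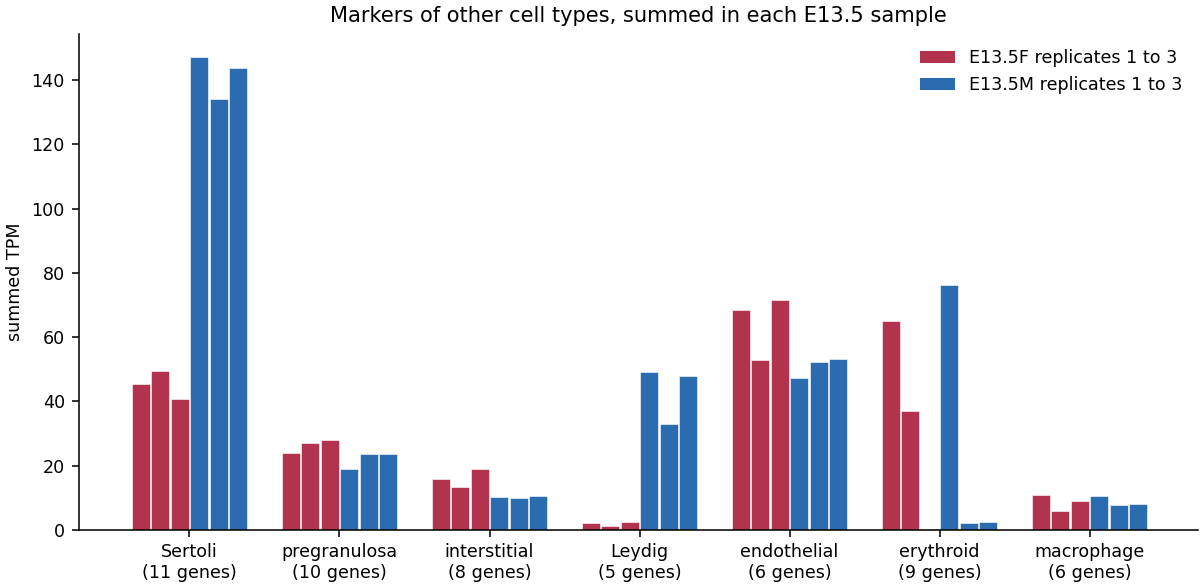
Summed TPM of the markers of 7 other cell types in each of the 3 female and 3 male samples, 1 bar per sample. Sertoli and Leydig sums are higher in all male samples, and the erythroid sum varies from 0.267 to 76.2 TPM within the sexes.

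Levels at E12.5 and E16.5 set the split in time, as a description without a test. The 3 E12.5 samples carry no sex in their labels and held Eif2s3y at a mean of 192 TPM, so they contained male cells in unknown share. The E13.5 male samples held Eif2s3y at a mean of 156 TPM. Means of Ddx3y, Uty and Kdm5d were 6.32, 4.41 and 2.43 TPM at E12.5 and 4.62, 3.69 and 2.89 TPM in E13.5 male samples. Stra8 was at 9.31, 16.1 and 11.6 TPM at E12.5, as low as in E13.5 male PGCs, and at 161, 123 and 149.8 TPM in female and 32.4, 30.0 and 43.1 TPM in male PGCs at E16.5. Its high level was thus seen in E13.5 female PGCs and was lower again at E16.5. Rec8 showed the same course, with means of 3.40 TPM at E12.5 and 4.33 TPM in E16.5 female PGCs. Structural and recombination genes instead stood higher still at E16.5: Sycp3 was at 4982, 4630.3 and 4694 TPM in E16.5 female PGCs, Spo11 at a mean of 292 TPM, and Figla at 823, 795 and 735 TPM. Id1 was at a mean of 57.5 TPM at E12.5 and 1801 TPM in E16.5 female PGCs.

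Male-side programs were of different ages. Lefty2 was at 338, 332 and 367 TPM at E12.5 and at 1.81, 2.36 and 1.87 TPM in E16.5 male PGCs, and Nodal was at a mean of 27.0 TPM at E12.5 and 2.59 TPM in E16.5 male PGCs. NODAL genes were therefore on before E13.5 and low again at E16.5. Utf1 was at a mean of 1170.0 TPM at E12.5 and 1210.1 TPM in E16.5 male PGCs, against 7.53 TPM in E16.5 female PGCs. Nanos2 was at 0.850, 0.162 and 0.851 TPM at E12.5, low in all 3 samples, and at 4.33, 7.09 and 4.65 TPM in E16.5 male PGCs, so that its level was highest at E13.5 among the stages measured. Dnmt3l and Piwil4, both low in E13.5 male PGCs, were at 693, 747 and 703 and 285, 260.3 and 249 TPM in E16.5 male PGCs. Phlda2 was at 302, 335 and 284 TPM at E12.5, between the E13.5 female and male levels.

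Over all calls, the E12.5 mean on log2(TPM + 1) was nearer to the male than to the female mean in 73.0% of female calls and nearer to the female mean in 50.4% of male calls, beside 43.5% nearer to the female mean over all tested genes. The part of the male cells at E12.5 in these shares was not tested. At E16.5, samples lay apart in the same direction for 1757 (60.1%) of the female calls, in the other direction for 625 (21.4%), and overlapped for 541. For male calls the counts were 918 (63.9%), 180 (12.53%) and 338. Over all tested genes, E16.5 samples lay apart with female higher for 41.8% and with male higher for 32.8%.

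**Figure D5:**
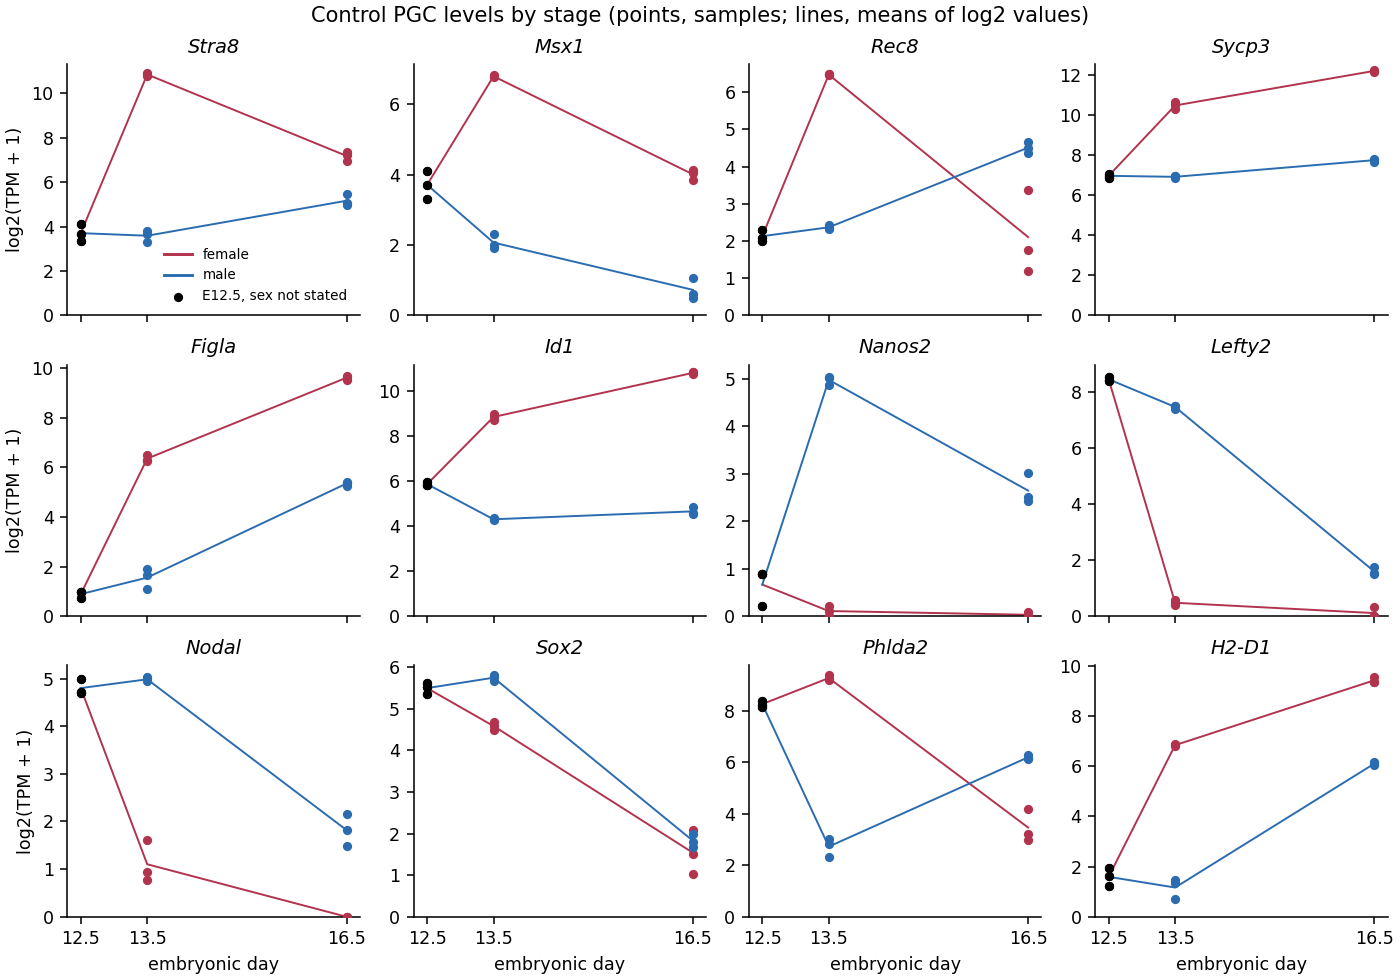
Levels of 12 genes as log2(TPM + 1) in the control PGC samples against embryonic day, 1 point per sample, with lines through the means of female and male samples that both start from the E12.5 samples of unstated sex. Stra8 peaks in E13.5 female samples, Sycp3 is highest in E16.5 female samples, and Lefty2 is high at E12.5 and in E13.5 male samples.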

How the data were processed

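RNA-seq of sorted control PGCs was used. Per the study's methods, the authors trimmed reads with Trim Galore, aligned them to Mm39 with STAR and kept uniquely mapped reads. The deposited TPM column was used for all values, and the deposited FPKM column for an alternative. The ratio of the deposited coverage (mean read depth per base) to FPKM, which scales with aligned bases, was 5.79, 5.26 and 3.44 in the female and 7.67, 7.43 and 6.89 in the male samples. Read counts per gene were not used here, so the counting error of a gene is unknown. The methods name featureCounts for PGC counts and, in the methylation analysis, StringTie for FPKM. The tool behind the TPM column and the strand of the libraries are not given in the sources used here.

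TPM was summed per gene ID (57126 IDs, 52764 autosomal). The 15042 autosomal IDs with a group mean of at least 1 TPM were tested, of which 12181 passed in both sexes, 1849 in female and 1012 in male samples alone. Just above the filter lay Ccdc142 (means 1.00 and 0.287 TPM, female and male) and just below it Gm15860 (1.00 and 0.833 TPM). limma 3.58.1 in R 4.3.3 was fitted to log2(TPM + 1) with the group as the only term and a trended prior, two-sided, with Benjamini-Hochberg adjustment over all tested genes. Genes were called with an absolute log2 difference above 1 and an adjusted p under 0.01. These p-values measure the spread between samples of a group, and sex cannot be told apart from any batch that ran with it. Tables and figures were made with Python 3.11.15, numpy 2.4.6, pandas 2.3.3 and matplotlib 3.10.9, and the fit was tested on simulated data.

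Named genes are up to 4 called members of each list by size of difference, filled up with abundant members, the 6 genes outside the lists with the largest difference on each side (no predicted genes, pseudogenes or ribosomal protein genes), preset sentinels and cell type markers. Other list members were named after their values were seen. Some members that count in the list totals are not reported here by name. Members and lists were chosen with earlier results of these data known. Alternatives tried were FPKM, another pseudocount, filter or threshold, median-of-ratios and quantile scaling, sample weights, no trend, a fit to 5 control groups, X and Y genes included, a replicate block and leaving out each sample. Samples of gonads and of the hyperglycemia group were left out.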

Additional observations from a re-analysis of the deposited data

Results flagged for a closer look

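Among the genes selected for description by the rule given with the methods, 15 are reported here in which every E13.5 sample lay apart by sex in one direction and every E16.5 sample in the other. The values are differences of log2(mean TPM + 1), female minus male, and the change of the difference between the stages was not tested. Rarb, Sohlh1, Ddx25, Piwil2, Dppa2, Lin28a, Bambi, Smad4, Max, Aldoc and Trp53, which the report mentions outside that selection, turned as well. Among all genes called at E13.5, the same turn was counted for 625 (21.4%) of 2923 female calls and 180 (12.53%) of 1436 male calls. It was not counted over all tested genes, called or not.

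A few genes of the meiotic entry and retinoic acid lists turned from female to male, while Stra8, Meiosin, Meioc, Msx1 and Rdh10 were still higher in every female sample at E16.5. The cohesin Rec8 was at 4.10 at E13.5 and -2.10 at E16.5. The homeobox gene Msx2 was at 4.88 at E13.5 and -1.42 at E16.5. Among retinoid-binding proteins, Crabp1 was at 1.68 at E13.5 and -3.56 at E16.5 and Crabp2 at 1.69 at E13.5 and -0.67 at E16.5. In these genes the E16.5 male mean was above the E16.5 female mean.

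The imprinted Phlda2 was at 6.52 at E13.5 and -2.63 at E16.5. The piRNA factor Mael was at 1.67 at E13.5 and -0.52 at E16.5. Lactate dehydrogenase Ldha was at 1.86 at E13.5 and -2.13 at E16.5. The MHC class I genes B2m and Tap1 were at 2.24 at E13.5 and -0.69 at E16.5, and at 2.25 at E13.5 and -1.53 at E16.5. Secretin (Sct) was at 5.34 at E13.5 and -1.49 at E16.5, and the cyclin Ccnd3, not called at E13.5, was at 0.26 at E13.5 and -1.29 at E16.5.

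Turning from male to female were Cdk6 at -1.72 at E13.5 and 0.66 at E16.5, the complex III subunit Uqcrq at -1.42 at E13.5 and 0.39 at E16.5, and the death regulators Bax at -1.67 at E13.5 and 0.16 at E16.5 and Pmaip1 at -5.58 at E13.5 and 0.92 at E16.5. With 3 samples in each group, single samples were not tested for standing apart.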

How the results depend on the processing

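Of 120 named genes with a fit, 114 were called, and 101 kept both call and direction under all 19 alternatives. The direction turned in 2, neither of them called: Dnmt1 was -0.19 and became 0.040 without E13.5F replicate 2 (lowest -0.30, highest 0.040 when each sample was left out), and Ccnd3 was 0.26 and became -0.045 with median-of-ratios scaling. The causes were not tested. Without the fold threshold the counts were 4997 genes higher in female and 2597 higher in male PGCs, since smaller differences then pass.

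The main counts were 2923 and 1436. The genes higher in female and in male PGCs numbered 1958 and 2082 with median-of-ratios scaling, 1958 and 2007 with quantile normalization, 2010 and 1203 with FPKM, and 3374 and 1546 with a pseudocount of 0.1. Leaving out each sample in turn gave counts of 2677 to 3132 higher in female and 1312 to 1476 higher in male PGCs. A call was lost without single samples in 7 named genes: Cdkn1b (without any sample but E13.5F replicate 2, adjusted p up to 0.0258), Incenp (without E13.5F replicate 1 or any male sample, adjusted p up to 0.0203), and Mbd4, Cdkn2a, Cenpf, Bub1 and E2f6, whose absolute log2 differences then were just under 1, with fewer samples in the fit. Whether replicate numbers pair the sexes is not stated in the sources used here. Correlations of same-number deviations were -0.012, -0.051 and 0.069, within the -0.114 to 0.122 of other-number pairs. With 3 samples in each group these values cannot settle it. With the replicate block the counts were 2948 and 1466.

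Depth per gene is unknown, so the counting error of low values cannot be given, and no count of 0 TPM bounds a level.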

Other observations

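Genes of the X chromosome, outside the autosomal comparison, leaned to the female side. Fitted together with the autosomal genes, 634 X-linked genes gave 290 higher in female and 24 higher in male PGCs, with a median log2 difference of 0.94. In the same fit 2923 (19.4%) of the autosomal genes were higher in female and 1436 (9.55%) in male PGCs. Among genes at 1 TPM or more in both sexes the median was 0.90 for 462 X-linked and 0.20 for 12181 autosomal genes. Of 9 Y-linked genes 7 were higher in male PGCs. The difference between the chromosomes was not tested.

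The X-linked genes named here were chosen after their values were seen. Taf7l, a germ cell paralog of a general transcription factor, was at 383, 351 and 427 TPM in the female samples and 14.7, 14.8 and 14.0 TPM in the male samples (log2 difference 4.64, adjusted p = 5.7e-09). Tsc22d3, a glucocorticoid-induced gene, was at 193, 187 and 193 TPM in the female samples and 7.65, 6.55 and 7.43 TPM in the male samples (log2 difference 4.55, adjusted p = 6.3e-09). Both were high in every female sample and stood at means of 1169 and 688 TPM in E16.5 female PGCs. Ndufa1, the X-linked subunit among the respiratory genes, was at 606, 675 and 365 TPM in the female samples and 194, 180.5 and 164 TPM in the male samples.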
